A study of Mus musculus with 32 samples.

Results

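The comparison described here is between 8 injured mice carrying human APOE4 and 8 injured mice carrying human APOE3, chosen by the genotype and injury code in the library titles from 32 libraries in all. APOE4 TBI animals (traumatic brain injury) were APOE4+/+ and APOE3 TBI animals were APOE3+/+. Both lines are targeted replacements on a C57BL/6 background, in which the human gene stands in place of mouse Apoe. Each of these animals had a craniotomy over the left parietal cortex and 1 impact on the exposed cortex. The 7 APOE4 sham and 7 APOE3 sham animals, used for comparison, had the craniotomy alone. The injured cortex was collected with the hippocampus 14 days later, so each library is a mixture of cells. The ages of the animals and the meaning of the letters Y, M and F in the titles are not spelled out in the labels. Each injured group held 4 animals with the letter M and 4 with the letter F, and 4 libraries with lower and 4 with higher totals. The 16 libraries summed to between 2371541 and 8606717 counts over the genes listed. Of the listed genes, 5249 had enough counts to be tested, with a median of 265 counts per injured library. The biological coefficient of variation was 13.8% among injured animals and 7.86% among shams, so genotype differences were estimated less precisely after injury.

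Apolipoprotein E is the main lipid carrier of the brain. It is made mostly by astrocytes and, after damage, by microglia, and the APOE4 form is the common genetic risk factor for late-onset Alzheimer's disease. A cortical impact kills neurons at the site, and the surviving tissue responds with reactive astrocytes, activated microglia and entry of blood-borne cells. Effects of the apolipoprotein form and of any other genetic difference between the lines cannot be told apart in this design.

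In injured tissue 11 of the 5249 genes differed between the genotypes at an adjusted p below 0.05 (0.210% of genes tested, edgeR's quasi-likelihood test with Benjamini-Hochberg adjustment), and these are called below. They were 8 genes that were higher in APOE4 TBI animals (0.152%) and 3 that were lower (0.0572%). The higher genes were the protease inhibitor gene Serpina3m, the peptide receptor gene Vipr2, the nuclear corepressor gene Hr, the stress transcription factor gene Atf4, and Inpp5f, Adar, Nudt3 and Mfn2. The lower genes were Pon2, Ica1 and Hrk. Only Serpina3m differed by 2-fold or more. The median log2 difference over all genes tested was -0.01, with 48.0% of genes above 0. Levels are CPM, counts per 1000000 counts of the listed genes, after TMM scaling, and log2 differences are APOE4 minus APOE3 with the standard error of the fit.

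**Figure D1:**
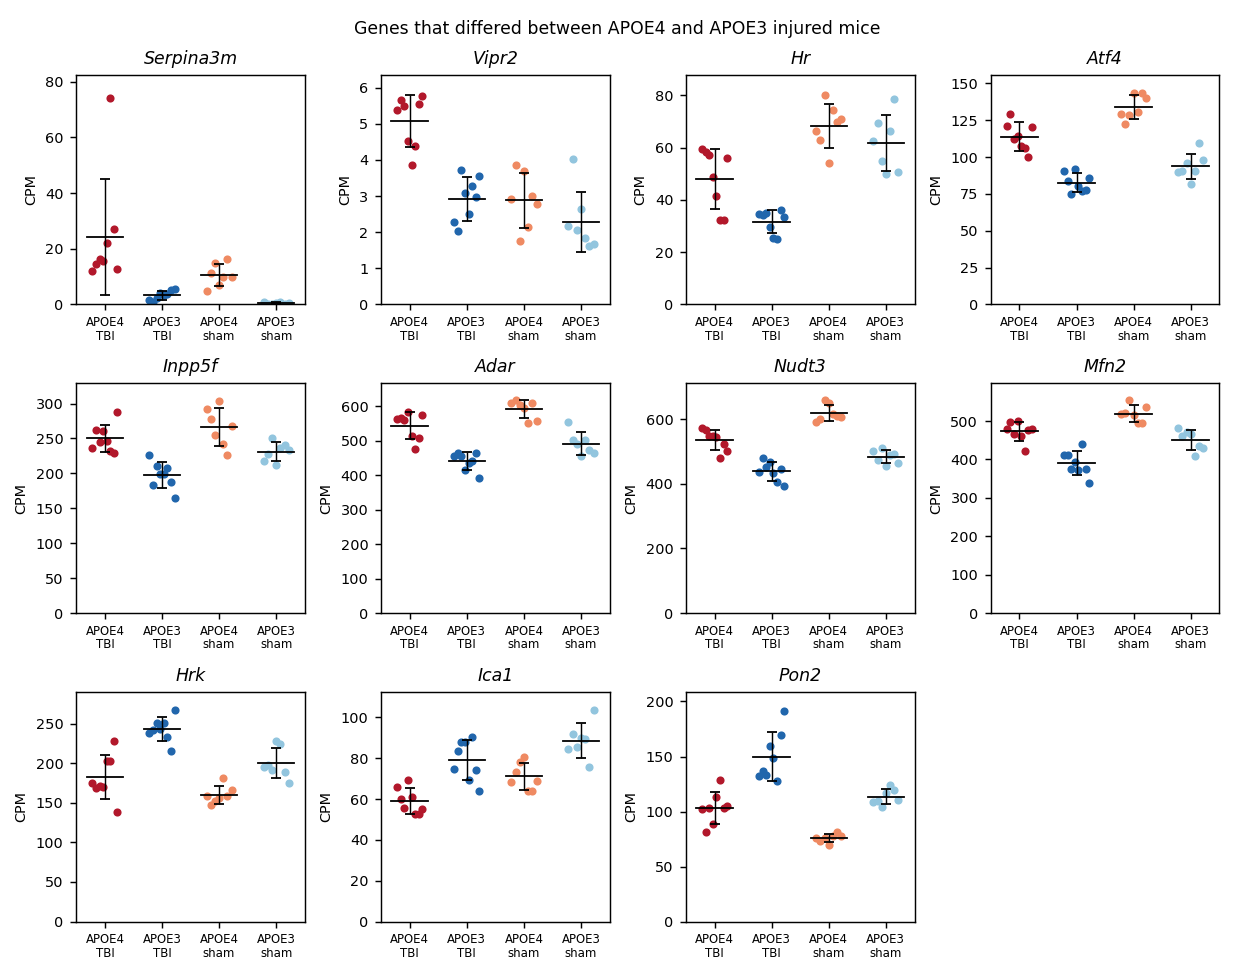
CPM on a linear axis from 0 for the 11 called genes, with each point 1 animal, lines the mean and bars the SD (n = 8 injured and n = 7 sham animals a genotype). Atf4 ran from 99.7 to 130 CPM in APOE4 TBI animals, above all APOE3 TBI animals at 74.9 to 91.9 CPM, and the shams of each genotype lay apart in the same direction.

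Serpina3m lies in a cluster of serpin genes on chromosome 12 (chr12:104387157-104394259, build GRCm38) whose members are mouse relatives of human antichymotrypsin, a secreted inhibitor of serine proteases that is known from reactive astrocytes. It had a lowest value of 11.9, a median of 15.8 and a highest value of 74.1 CPM in APOE4 TBI animals, against 1.01, 3.63 and 5.41 CPM in APOE3 TBI animals. All 8 APOE4 TBI animals lay above every APOE3 TBI animal. The difference was 2.72 ± 0.32 on the log2 scale, or 6.59-fold (adjusted p = 0.000586, edgeR). APOE4 TBI animal 6 supplied the value of 74.1 CPM, and the log2 difference over the 16 fits that leave out 1 animal stayed between 2.37 and 2.95. The neighbouring family member Serpina3n, which is the more abundant of the pair, did not separate the injured groups. It had 224, 319 and 1538 CPM (lowest, median, highest) in APOE4 TBI animals and 222, 364 and 675 CPM in APOE3 TBI animals, with a log2 difference of 0.15 ± 0.29 (adjusted p = 0.962, edgeR). The coding sequences of Serpina3m and Serpina3n, both 1257 bases long, are 85.2% identical. They are shown here at their most different stretch, coding bases 1125 to 1214, because it shows what allows reads of each gene to be told from the other. It lies toward the end of the coding sequence, where serpins carry the reactive-centre loop that binds the target protease. Capitals mark the 36 of 90 bases that differ (GENCODE M21 transcripts of GRCm38, 5′ to 3′).
Serpina3m: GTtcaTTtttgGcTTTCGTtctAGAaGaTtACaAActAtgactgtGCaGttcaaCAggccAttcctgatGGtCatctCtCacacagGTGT
Serpina3n: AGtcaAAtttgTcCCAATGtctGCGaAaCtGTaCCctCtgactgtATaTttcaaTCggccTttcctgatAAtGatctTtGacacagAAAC

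Reads from the more alike stretches could still be assigned to either gene, so single Serpina3 values are uncertain. Of the windows of 50 bases along the Serpina3m transcript, 19.1% also occurred in another Serpina3 gene, and for windows of 100 bases the share was 6.09%. For Serpina3n these shares were 6.90% and 0.204%. The number of Serpina3m reads per 100 Serpina3n reads, a quantity chosen after the values were seen and given without a test, was 4.12 to 5.33 in APOE4 TBI animals and 0.290 to 1.24 in APOE3 TBI animals. In shams it was 3.80 to 5.76 for APOE4 and 0.272 to 1.95 for APOE3. Each library's ratio rests on 42 to 203 Serpina3m counts in APOE4 TBI animals and 3 to 34 in APOE3 TBI animals. It rests on 21 to 81 counts in APOE4 shams and on 1 to 3 in APOE3 shams, so the APOE3 sham ratio is poorly known. Of the other tested members, Serpina3i had 1.14, 3.28 and 12.2 CPM in APOE4 TBI animals against 0.344, 1.31 and 2.95 CPM in APOE3 TBI animals (1.24 ± 0.44, adjusted p = 0.444), and Serpina3g differed by -0.15 ± 0.29 (adjusted p = 0.961, edgeR).

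Atf4 (chr15:80255184-80257545) encodes the transcription factor at the end of the integrated stress response, which adjusts amino acid supply when protein synthesis is held back. It had 99.7, 113 and 130 CPM (lowest, median, highest) in APOE4 TBI animals, against 74.9, 82.0 and 91.9 CPM in APOE3 TBI animals. The groups did not overlap, and the difference was 0.46 ± 0.06 (adjusted p = 0.000687, edgeR). Atf4 acts partly through C/EBP-ATF response elements, here searched as TGATGNAA on both strands in the 250 bases before each RefSeq gene start. Of the 19 tested genes of a list of integrated stress response and amino acid genes, 15 had a promoter entry, and 6 of these held the motif (40%, against 3.01% of tested genes and 3.91% of all genes with an entry). The list gathers genes of that response, so its share does not bear on the genotypes. Of the 9 called genes with an entry, 1 held the motif, Hrk (11.1%). The windows of 4 of the 6 list genes are printed, since these are known targets of Atf4 or close to them in function. Another reason is that their values did not all lean the same way. Capitals mark the motif or its reverse complement, and each window runs 5′ to 3′ on the strand of its gene (RefSeq, GRCm38.p6).
Asns, chr6:7693210-7693269, minus strand: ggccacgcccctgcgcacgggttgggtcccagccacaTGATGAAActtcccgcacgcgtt
Gars, chr6:55037941-55038000, plus strand: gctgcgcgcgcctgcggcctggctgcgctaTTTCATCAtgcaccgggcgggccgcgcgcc
Aars, chr8:111033704-111033763, plus strand: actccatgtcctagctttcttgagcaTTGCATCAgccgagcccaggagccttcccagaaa
Pck2, chr14:55540137-55540196, plus strand: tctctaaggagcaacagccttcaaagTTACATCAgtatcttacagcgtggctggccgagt

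Asns, which makes asparagine, had 192, 230 and 263 CPM in APOE4 TBI animals and 152, 203 and 214 CPM in APOE3 TBI animals. The groups overlapped, and its log2 difference of 0.22 ± 0.07 was not called (adjusted p = 0.348, edgeR). In shams Asns was called, at 0.28 ± 0.05 (adjusted p = 0.00471, edgeR). Asns lies on chromosome 6 between the called genes Pon2 and Ica1, described below. Whether its difference goes with Atf4 or with its position was not tested. The transfer RNA synthetase genes Gars (0.15 ± 0.05, adjusted p = 0.426), Aars (0.14, adjusted p = 0.524) and Nars (0.14, adjusted p = 0.438) also had positive estimates that were not called. Yars, another synthetase gene, had 189, 198 and 213 CPM in APOE4 TBI animals and 155, 179 and 185 CPM in APOE3 TBI animals, without overlap between the groups. Its log2 difference was 0.18 ± 0.05 (adjusted p = 0.216, edgeR), and Aars, Nars and Yars were named after their values were seen. Pck2, the mitochondrial enzyme that makes phosphoenolpyruvate, had 56.2, 65.2 and 71.7 CPM in APOE4 TBI animals and 62.6, 78.3 and 81.4 CPM in APOE3 TBI animals (-0.24 ± 0.07, adjusted p = 0.285, edgeR). Over the 19 tested genes of this list, Atf4 alone was called, 6 genes were higher and 1 was lower at an unadjusted p below 0.05, and the median log2 difference was 0.03. Over all genes tested, 8.34% passed that unadjusted threshold, 4.92% higher and 3.43% lower.

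The remaining higher genes have varied roles. Vipr2 encodes a receptor for the neuropeptides VIP and PACAP, and had 3.85, 5.44 and 5.76 CPM in APOE4 TBI animals and 2.02, 3.02 and 3.71 CPM in APOE3 TBI animals (0.80 ± 0.16, adjusted p = 0.0359, edgeR). Hr had 32.1, 52.3 and 59.3 CPM in APOE4 TBI animals and 25.0, 34.0 and 35.9 CPM in APOE3 TBI animals (0.60 ± 0.12, adjusted p = 0.0482, edgeR). The Vipr2 groups did not overlap, and 6 of 8 APOE4 TBI animals lay above every APOE3 TBI animal for Hr. Inpp5f, a phosphoinositide phosphatase gene, had 230, 246 and 288 CPM in APOE4 TBI animals and 165, 199 and 226 CPM in APOE3 TBI animals (0.34 ± 0.07, adjusted p = 0.0359, edgeR). Adar, whose product edits adenosine in double-stranded RNA, had 476, 564 and 585 CPM in APOE4 TBI animals and 391, 450 and 466 CPM in APOE3 TBI animals (0.30 ± 0.05, adjusted p = 0.0134, edgeR). For both genes the groups lay wholly apart. Nudt3, which cleaves diphosphorylated inositol phosphates, had 481, 548 and 572 CPM in APOE4 TBI animals and 393, 442 and 480 CPM in APOE3 TBI animals (0.29 ± 0.04, adjusted p = 0.00416, edgeR). Mfn2, needed for fusion of mitochondria, had 423, 478 and 501 CPM in APOE4 TBI animals and 338, 384 and 441 CPM in APOE3 TBI animals (0.28 ± 0.05, adjusted p = 0.0359, edgeR). Nudt3 separated the groups completely, and Mfn2 did so in 7 of 8 APOE4 TBI animals.

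Pon2, an intracellular lactonase gene related to serum paraoxonase, was the lower gene with the smallest p. It had 81.8, 103 and 128 CPM in APOE4 TBI animals and 128, 143 and 191 CPM in APOE3 TBI animals, and 7 of 8 APOE4 TBI animals lay below every APOE3 TBI animal (-0.55 ± 0.08, adjusted p = 0.00293, edgeR). Ica1, which encodes a vesicle-associated islet cell autoantigen, had 52.4, 57.6 and 69.1 CPM in APOE4 TBI animals and 64.0, 79.2 and 90.4 CPM in APOE3 TBI animals (-0.42 ± 0.08, adjusted p = 0.0219, edgeR). Pon2 and Ica1 lie near each other on chromosome 6, at chr6:5264620-5298345 and chr6:8630527-8778540. Within 10 Mb of Pon2, a window chosen after the values were seen, 2 of 19 tested genes were called in injured animals (0.210% of all genes) and 5 in shams (0.514%), counts that include Pon2 and Ica1, which prompted the window. Asns also lies in this window and was among the genes called in shams. Within 10 Mb of Apoe itself, 0 of 75 tested genes were called in injured animals and 3 had an unadjusted p below 0.05 (8.34% of all genes). Hrk, which encodes a pro-apoptotic activator of the Bcl-2 family, had 139, 173 and 228 CPM in APOE4 TBI animals and 216, 243 and 268 CPM in APOE3 TBI animals (-0.42 ± 0.08, adjusted p = 0.0319, edgeR). The lipoxygenase gene Aloxe3 differed by -0.43 ± 0.10 and was not called in edgeR (adjusted p = 0.125 in edgeR and 0.0217 in DESeq2).

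Complete separation of the groups was rare. It occurred in 9 of the genes tested (0.171%), which were Serpina3m, Atf4, Vipr2, Inpp5f, Adar, Nudt3, Yars, Btrc and Pcdhgb1. Btrc, a substrate receptor of a ubiquitin ligase, differed by 0.20 ± 0.05 (adjusted p = 0.146, edgeR). Pcdhgb1 differed by 0.32 ± 0.09 (adjusted p = 0.300, edgeR) and belongs to the clustered protocadherins, which share exons, so its value is uncertain. Serpina3m, Atf4, Pon2, Nudt3 and Adar were called in each of the 16 fits that leave out 1 animal. Ica1 was called in 11 of these fits, Hrk in 7, Inpp5f in 5, Hr in 4, and Mfn2 and Vipr2 in 3 each. All 11 genes had the same direction among animals with the letter M, with the letter F, and in the shallow and the deep libraries, although these subsets of 8 animals gave 9, 0, 1 and 0 calls.

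The shams show how much of the genotype difference was present without impact. Shams had 27 called genes (0.514%), 19 higher and 8 lower in APOE4. All 11 genes called in injured animals had the same direction in shams, and 8 of them were called there too, which is 72.7% of the injured calls and 29.6% of the sham calls. Atf4 differed by 0.51 ± 0.06 in shams (adjusted p = 3.77e-05), Pon2 by -0.55 ± 0.04 (adjusted p = 3.06e-07), Nudt3 by 0.35 (adjusted p = 1.10e-05), and Adar by 0.26 (adjusted p = 0.00154, edgeR). These sizes were close to those in injured animals. Serpina3m averaged 10.6 ± 4.03 CPM in APOE4 shams and 0.479 ± 0.329 CPM in APOE3 shams (SD, n = 7 each), the APOE3 shams having 1 to 3 counts each. Mfn2 (0.19, adjusted p = 0.0211), Ica1 (-0.33, adjusted p = 0.0379) and Hrk (-0.30, adjusted p = 0.0190) were also called in shams. Vipr2 (0.32 ± 0.23, adjusted p = 0.7102), Hr (0.14, adjusted p = 0.698) and Inpp5f (0.19, adjusted p = 0.189) were not called there.

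A call in one state and not in the other does not show that the genotype difference changed with injury, so the difference of differences was tested over 30 animals. No gene passed (0%) in edgeR, DESeq2 or limma-voom, and 112 genes had an unadjusted p below 0.05 in edgeR (2.13%). The smallest adjusted p was 0.452, for Serpina3n, whose genotype difference was smaller after injury by -1.93 ± 0.43 on the log2 scale. Serpina3n averaged 501 ± 435 CPM in APOE4 TBI animals and 412 ± 164 CPM in APOE3 TBI animals (SD, n = 8 each), while APOE4 shams averaged 223 ± 78.6 CPM and APOE3 shams 54.7 ± 11.8 CPM (SD, n = 7 each; 2.06 ± 0.20, adjusted p = 4.90e-06, edgeR). APOE4 shams thus lay above APOE3 shams, while the injured groups overlapped between 224 and 675 CPM, where all but 1 APOE4 TBI animal lay. For Serpina3m the interaction was -2.06 ± 0.66 (adjusted p = 1.00, edgeR). For Vipr2, Hr and Inpp5f the change in genotype difference was therefore not shown.

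**Figure D2:**
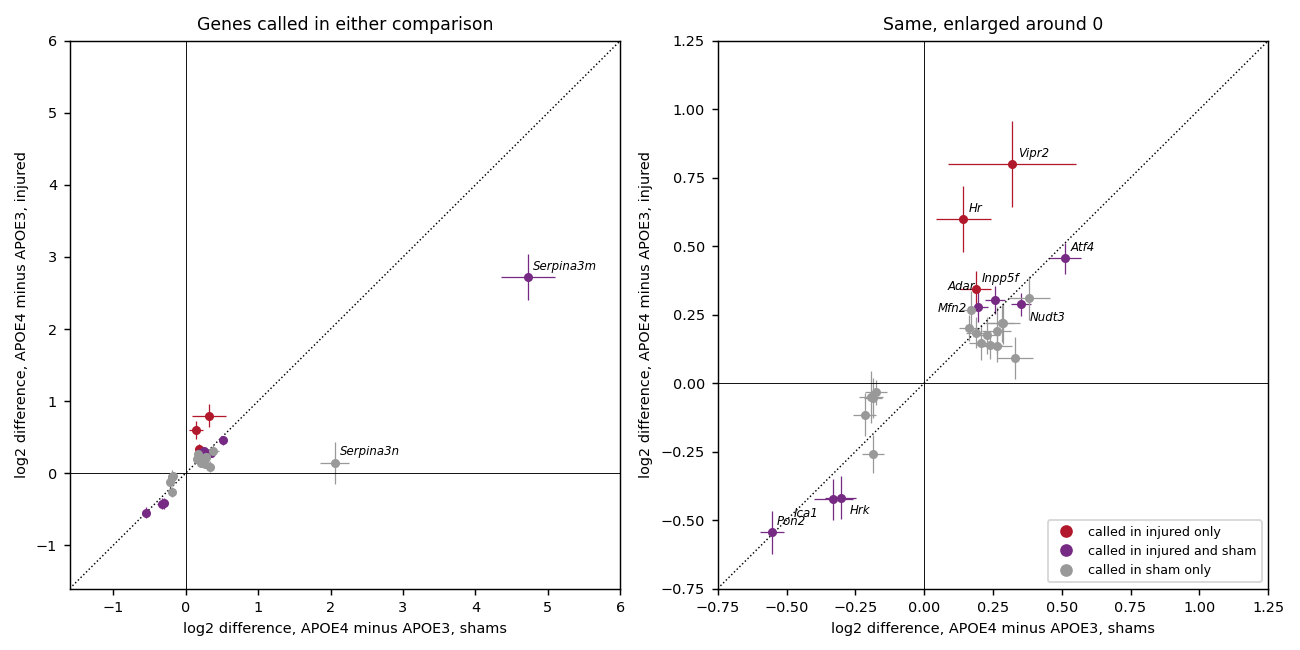
Log2 difference APOE4 minus APOE3 in injured animals (vertical axis) against that in shams (horizontal axis), with bars of 1 standard error, for 29 of the 30 genes called in either comparison, in full at left and enlarged at right. Serpina3i is left out because it had 0 counts in every APOE3 sham. The dotted line marks equal differences, and Serpina3n sits far below it, at 0.15 in injured animals and 2.06 in shams.

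The genes that the study's title names as hubs did not separate the genotypes. Trem2, the microglial lipid receptor, had 42.7, 69.9 and 130 CPM (lowest, median, highest) in APOE4 TBI animals and 56.8, 73.8 and 117 CPM in APOE3 TBI animals (-0.13 ± 0.19, adjusted p = 0.935, edgeR). Tyrobp, its signalling adaptor, had 49.6, 63.8 and 184 CPM in APOE4 TBI animals and 62.8, 84.7 and 134 CPM in APOE3 TBI animals (-0.31 ± 0.22, adjusted p = 0.818, edgeR). The groups overlapped for both, and the highest value of each gene came from an APOE4 TBI animal. Reads counted to the mouse Apoe gene came to 38.2, 44.6 and 50.6 CPM in APOE4 TBI animals and 33.0, 44.7 and 53.7 CPM in APOE3 TBI animals (-0.04 ± 0.08, adjusted p = 0.961, edgeR). How reads from the human transgene were assigned is not given in the sources used here, so this does not measure APOE expression. With standard errors near 0.2, differences of the size seen for Atf4 would not have been detectable for Trem2 or Tyrobp.

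The glial lists held 0 called genes, against 0.210% over all genes tested, and in most lists more single estimates lay below 0 than above. Among 24 tested disease-associated microglia genes, 22 estimates were negative and 2 positive (median -0.16, against -0.01 over all genes tested). The estimates were negative for 21 of 26 reactive astrocyte genes (median -0.19), 13 of 15 complement genes (-0.13), 12 of 14 chemokine and cytokine genes (-0.16), 19 of 22 genes of Fc receptors and phagocytosis (-0.09) and 15 of 17 MHC class I genes (-0.10). Other lists leaned less or had smaller medians. Negative were 12 of 17 Trem2-Tyrobp signalling genes (-0.07), 12 of 15 homeostatic microglia genes (-0.05) and 18 of 27 lysosome genes (-0.09). Of homeostatic astrocyte genes 10 of 17 were negative (-0.03), and of infiltrating and border macrophage genes 6 of 12 (0.02). All members are read from the same 16 animals, so these counts are not independent observations. Lcn2, a siderophore-binding protein of reactive astrocytes, had 29.8, 52.7 and 600 CPM in APOE4 TBI animals and 38.0, 111 and 326 CPM in APOE3 TBI animals (-0.56 ± 0.54, adjusted p = 0.883, edgeR). C3, the central complement protein, had 67.8, 120 and 921 CPM in APOE4 TBI animals and 81.9, 227 and 582 CPM in APOE3 TBI animals (-0.45 ± 0.40, adjusted p = 0.877, edgeR). In both genes the APOE4 TBI group held the lowest animal, the highest animal and the lower median. The astrocyte intermediate filament gene Gfap had 1453, 2460 and 4321 CPM in APOE4 TBI animals and 2355, 2779 and 4041 CPM in APOE3 TBI animals (-0.20 ± 0.15, adjusted p = 0.846, edgeR). Estimates for Steap4, an iron reductase gene (-0.62 ± 0.41), Spp1, which encodes osteopontin (-0.43 ± 0.40), and Cst7, a cathepsin inhibitor gene (-0.27 ± 0.36), were imprecise too. In bulk tissue, fewer cells of a type and less RNA per cell cannot be told apart.

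The direction of many glial estimates differed by the letter in the titles, in subsets of 4 animals per genotype added after the data were seen. Among animals with the letter M, 22 of 24 disease-associated microglia genes and 24 of 26 reactive astrocyte genes were negative, with medians of -0.33 for the microglia and -0.46 for the astrocyte genes. Among animals with the letter F, 17 of 24 and 16 of 26 were positive, with medians of 0.08 and 0.02. The MHC class I genes did not turn, with 15 of 17 negative for the letter M and 12 of 17 for the letter F, nor did homeostatic astrocyte genes, with 9 of 17 and 11 of 17 negative. Lcn2 differed by -1.77 among animals with the letter M and by 0.52 among those with the letter F. C3 differed by -1.25 with the letter M and by 0.28 with the letter F. The genotype by letter difference was tested and no gene passed (0%) in edgeR, limma-voom or DESeq2, with 158 genes at an unadjusted p below 0.05 in edgeR (3.01%). Lcn2 gave -2.28 ± 0.93 and C3 -1.53, letter M minus letter F, both with an adjusted p of 1.00 in edgeR. Without APOE4 TBI animal 6, which carries the letter F, the medians over all letters were -0.27 for disease-associated microglia genes and -0.33 for reactive astrocyte genes. Without APOE3 TBI animal 8 they were -0.10 and -0.13 for the same lists, -0.04 for MHC class I and -0.05 for Fc receptors and phagocytosis.

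Outside the glial lists, the lists of neuronal genes leaned differently. Estimates were positive for 13 of 22 genes of excitatory neurons and synapses (median 0.04), 5 of 10 of inhibitory neurons (0.02) and 4 of 11 of cortex and hippocampus neurons (-0.05), against 48.0% of all genes tested. Among 16 tested immediate early genes, which follow neuronal activity, 14 estimates were positive (median 0.19), and 2 had an unadjusted p below 0.05 (8.34% of all genes tested). By letter, 9 of 16 were positive for the letter M (median 0.12) and 13 of 16 for the letter F (0.14). Egr1 differed by 0.45 ± 0.17 (adjusted p = 0.503), Arc by 0.43 ± 0.21 (adjusted p = 0.627) and Nr4a1 by 0.35 ± 0.13 (adjusted p = 0.492, edgeR). Egr1 was called without APOE3 TBI animal 7, at 0.65 (adjusted p = 0.0298, edgeR). Of 17 voltage-gated ion channel genes, 14 were positive (median 0.09). These were 16 of 17 for the letter M (median 0.15) and 10 of 17 for the letter F (0.02). The sodium channel subunit gene Scn4b had 42.8, 57.5 and 182 CPM in APOE4 TBI animals and 32.1, 38.0 and 69.3 CPM in APOE3 TBI animals (0.91 ± 0.27, adjusted p = 0.311, edgeR). Slc17a6, a glutamate transporter of synaptic vesicles that is abundant in thalamus, had 44.7, 94.8 and 337 CPM in APOE4 TBI animals and 36.5, 61.2 and 73.4 CPM in APOE3 TBI animals (1.09 ± 0.33, adjusted p = 0.317, edgeR). APOE4 TBI animal 8 was the highest animal for both genes and for the channel genes Scn1a (0.37 ± 0.14) and Kcna2 (0.23 ± 0.10). Without it the differences were 0.59 for Scn4b, 0.59 for Slc17a6 and 0.21 for Scn1a. Of 4 thalamus and striatum markers only Prkcd was tested, at 32.5 to 63.9 CPM in APOE4 TBI animals, 39.7 CPM in animal 8, and 29.7 to 50.2 CPM in APOE3 TBI animals. The part of dissected subcortical tissue in these results was not tested.

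All 6 tested genes of oligodendrocytes and myelin had positive estimates (median 0.20), with 3 at an unadjusted p below 0.05, against 4.92% higher over all genes tested, and 0 called (0.210%). In shams the median log2 difference of these genes was 0.11, so a positive lean was also present without impact. Enpp6, an enzyme gene of newly forming oligodendrocytes, had 13.8, 17.9 and 32.5 CPM in APOE4 TBI animals and 9.10, 13.04 and 15.9 CPM in APOE3 TBI animals (0.58 ± 0.13, adjusted p = 0.128, edgeR). DESeq2 called it (adjusted p = 0.0208). In edgeR it passed once each animal's size of response over rising genes, described below, was a covariate (0.59, adjusted p = 0.0347). That fit called 11 genes, 10 of them shared with the main fit, and Hr was no longer called. Fa2h, which hydroxylates myelin lipids, differed by 0.34 ± 0.09 (adjusted p = 0.285), and Mal, a myelin proteolipid gene, by 0.20 ± 0.07 (adjusted p = 0.426, edgeR). The defining oligodendrocyte markers were not among the genes tested. In the matrix and scar list, 17 of 23 estimates were negative (median -0.08), with Thbs4, a thrombospondin gene, at -0.52 ± 0.16 (adjusted p = 0.344) and the collagen gene Col6a1 at -0.36 ± 0.12 (adjusted p = 0.421, edgeR). In the interferon list 21 of 36 estimates were positive (median 0.04). Cholesterol synthesis had 14 of 21 positive (median 0.02), with 3 higher and 0 lower at an unadjusted p below 0.05.

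**Figure D3:**
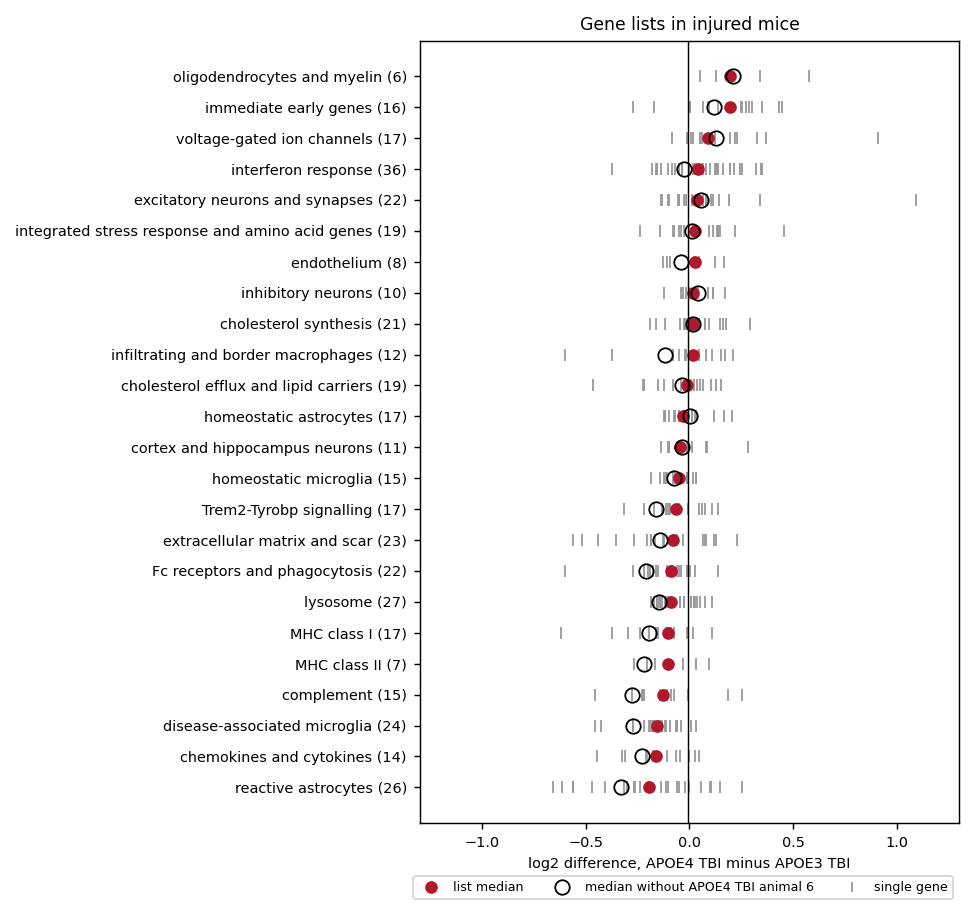
Log2 difference APOE4 TBI minus APOE3 TBI for the 24 gene lists with at least 5 tested genes, where ticks are single genes, filled circles the list medians and open circles the medians without APOE4 TBI animal 6, with the number of tested genes in brackets. The 26 reactive astrocyte genes sit lowest at a median of -0.19, and without animal 6 the medians of the reactive astrocyte, disease-associated microglia and complement lists are -0.33, -0.27 and -0.28.

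How strongly each animal responded to the impact was summarised as the mean log2 CPM minus the mean of the 14 shams, over 388 genes with a coefficient of at least 1 for TBI against sham and 132 genes with a coefficient of -0.5 or lower in the authors' deposited table. Those coefficients came from these same animals of both genotypes. Over the rising genes the score was 1.20, 1.55 and 2.75 (lowest, median, highest) in APOE4 TBI animals and 1.40, 1.69 and 2.39 in APOE3 TBI animals. The groups overlapped, and the means of 1.73 ± 0.529 for APOE4 TBI and 1.82 ± 0.413 for APOE3 TBI animals (SD, n = 8 each) differed by -0.09 (exact two-sided permutation p = 0.703, adjusted over 4 tests 0.783). Over the falling genes the score was -0.836, -0.505 and -0.424 in APOE4 TBI animals and -1.02, -0.805 and -0.577 in APOE3 TBI animals. APOE4 TBI animals lay closer to the shams by 0.20 on average (exact permutation p = 0.0202, adjusted 0.0808), which did not pass the correction.

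That difference in the falling genes depended on how it was measured. With each genotype's own shams as the baseline it was 0.08 (adjusted p = 0.787, exact permutation), since the falling-gene score of APOE4 shams averaged 0.0629 and that of APOE3 shams -0.0629. Over all genes with a negative coefficient it was 0.04 (adjusted p = 0.739), and with scaling to total counts it was 0.20 and passed (adjusted p = 0.046, exact permutation). It also passed without APOE4 TBI animal 6 (adjusted p = 0.0305), without APOE4 TBI animal 7 (0.036) and without APOE3 TBI animal 1 (0.0497, exact permutation). Among animals with the letter M, the falling-gene scores were -0.509 to -0.424 in APOE4 TBI animals and -0.891 to -0.577 in APOE3 TBI animals, without overlap (exact permutation p = 0.0286, adjusted 0.114). Among animals with the letter F, they were -0.836 to -0.475 in APOE4 TBI animals, which overlapped with -1.02 to -0.615 in APOE3 TBI animals. In shallow libraries the falling-gene means were -0.581 for APOE4 TBI and -0.747 for APOE3 TBI animals, and in deep libraries -0.584 for APOE4 TBI and -0.827 for APOE3 TBI animals.

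**Figure D4:**
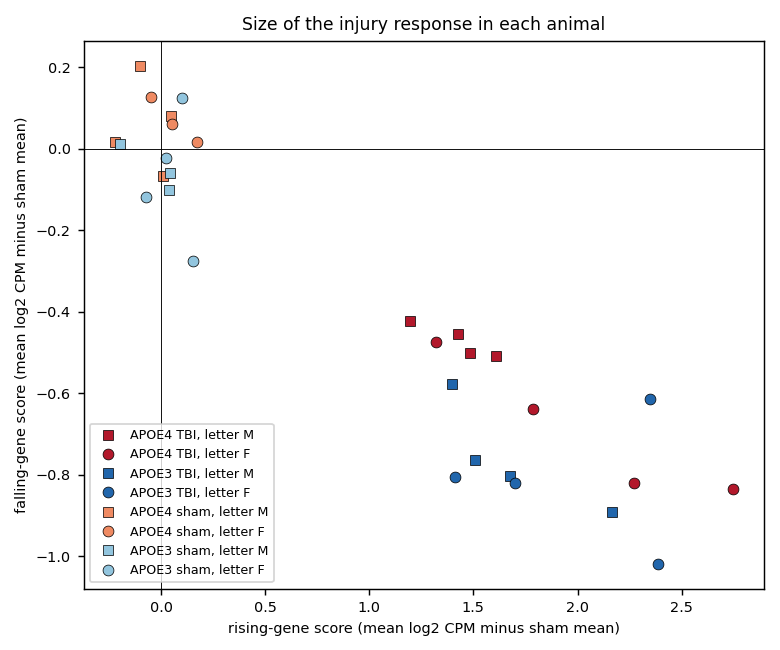
Falling-gene score against rising-gene score (both mean log2 CPM minus the sham mean), 1 symbol per animal, with squares for the letter M and circles for the letter F. The 16 injured animals lie to the lower right of the 14 shams, and the 4 APOE4 TBI animals with the letter M are among the injured animals nearest to them, at rising scores of 1.20 to 1.61.

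Animals with a larger rise also had a deeper fall. Over the 16 injured animals the scores were related with r = -0.654 (permutation p = 0.00631) and Spearman's rho = -0.762 (permutation p = 0.0009), and without the 2 animals farthest from the median the relation was r = -0.545 (permutation p = 0.0463, n = 14). Within APOE4 TBI animals r was -0.966 (exact permutation p = 0.000198) and rho -0.976 (exact permutation p = 0.000397, n = 8). Within APOE3 TBI animals r was -0.387 (exact permutation p = 0.353) and rho -0.571 (exact permutation p = 0.151, n = 8). A total of 5 such relations were computed, with adjusted p values of 0.0158 for all 16 animals, 0.0578 without the 2 farthest animals, which did not pass, 0.000992 for APOE4 TBI and 0.353 for APOE3 TBI. Whether the relation differs between the genotypes was not tested. Both scores come from the same libraries with the same scaling, which can relate them.

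By these scores the spread of the response between animals did not separate the genotypes. The mean absolute deviation of the rising-gene score from its group median was 0.374 in APOE4 TBI animals and 0.326 in APOE3 TBI animals (difference 0.05, exact permutation p = 0.783, adjusted 0.783). For the falling genes it was 0.119 in APOE4 TBI animals and 0.0969 in APOE3 TBI animals (difference 0.02, exact permutation p = 0.549, adjusted 0.783). The APOE4 TBI animals with the letter M were close to each other in the rising score, from 1.20 to 1.61, and those with the letter F ran from 1.32 to 2.75. The APOE3 TBI animals ran from 1.40 to 2.17 with the letter M and from 1.41 to 2.39 with the letter F.

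Gene by gene, no gene was called for a difference in spread between the genotypes (0%, limma on absolute deviations with Benjamini-Hochberg adjustment). The test was tried on artificial, normally distributed log2 values with the same SD for every unchanged gene. With 200 genes changed, it recovered 16% of genes whose spread was changed 4-fold. Real counts differ in spread from gene to gene, so the share may differ for them. The lack of calls therefore does not show equal spread. Among the injured animals, 163 genes had an unadjusted p below 0.05 (3.11%). Of these, 128 were more spread in APOE4 TBI animals and 35 in APOE3 TBI animals. Of all genes tested, 61.0% had the larger mean absolute deviation in APOE4 TBI animals, with medians of 0.152 there and 0.135 in APOE3 TBI animals. That share rested on single animals. It was 49.2% without APOE4 TBI animal 6 and 74.9% without APOE3 TBI animal 8, and 54.9% to 64.0% in the other 14 leave-outs. With deviations taken within each letter it was 53.4%. The gene with the smallest p was the phosphatase gene Dusp10, at 7.67, 11.9 and 17.0 CPM in APOE4 TBI animals and 9.64, 10.4 and 11.8 CPM in APOE3 TBI animals (mean absolute deviations 0.354 in APOE4 TBI and 0.0597 in APOE3 TBI animals, adjusted p = 0.515, limma). The activity gene Arc leaned the other way, with mean absolute deviations of 0.126 in APOE4 TBI animals and 0.5682 in APOE3 TBI animals (adjusted p = 1.00, limma).

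**Figure D5:**
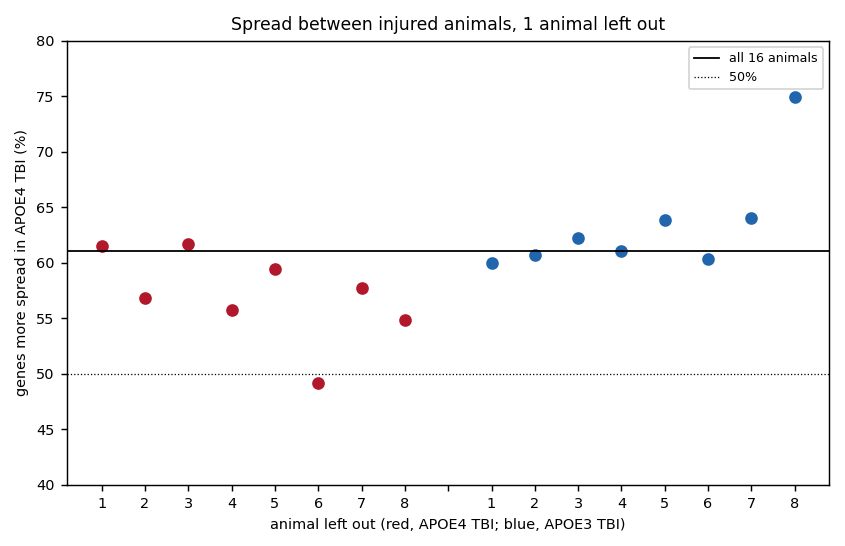
Percentage of tested genes with the larger mean absolute deviation in APOE4 TBI animals (vertical axis, from 40%), after leaving out 1 animal at a time (horizontal axis, red for APOE4 TBI and blue for APOE3 TBI animals), with a solid line for all 16 animals at 61.0% and a dotted line at 50%. The share is 49.2% without APOE4 TBI animal 6 and 74.9% without APOE3 TBI animal 8.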

How the data were processed

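Raw, whole-number read counts of 32 libraries were deposited in 1 table. Beside them, per the file headers, stand the authors' log2 coefficients of the injury contrast and a p-value for each gene. The listed 5582 genes had been selected on that injury contrast, so genotype tests cover these genes only. Subread 1.5.0, edgeR 3.14.0 and build mm10 are named per the submitters' processing notes, and the annotation and strand setting are not given in the sources used here. Replicates are separate animals by their numbers in the titles. Library E2073 (title sham, source TBI) and library F1372 (title APOE3, source APOE4) were left out of every comparison. Symbols that had turned into dates (13) were restored from gene identifiers, and 5557 identifiers matched a RefSeq table of GRCm38.p6.

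Counts of the 16 injured animals were fitted in R 4.3.3 with edgeR 4.0.16 (TMM, filterByExpr, quasi-likelihood F-test, title letter as covariate), which dropped 333 genes. Shams were fitted alone, and the interaction over 30 animals. Log2 CPM used a prior count of 1. Spread used limma 3.58.1 on absolute deviations from the group median. Scores were tested by exact permutation over animals. DESeq2 1.42.0 and limma-voom were alternatives. Adjusted p-values are Benjamini-Hochberg over all genes tested, with a threshold of 0.05. The edgeR fits of injured animals, of shams and of the interaction were checked on artificial counts with 200 genes changed. The spread test was checked on artificial, normally distributed log2 values, also with 200 genes changed.

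Genes were named by rule: the called genes (at most 10 largest and 5 of smallest p per direction, with the 5 smallest p where fewer than 5 passed), Trem2, Tyrobp, Apoe and the tested Serpina3 genes, up to 4 members per gene list by size of difference, and the smallest p for spread and interaction, from which the text takes those it describes. Aars, Nars, Yars, Btrc, Pcdhgb1 and the chromosome 6 window were added after their values were seen. Gfap, one of the astrocyte markers, was also named outside this rule. The comparison and the 31 gene lists were chosen with earlier results of these data known. A gene that the rule names is not reported here.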

Additional observations from a re-analysis of the deposited data

Results flagged for a closer look

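Of 96 sets of 8 injured animals checked over the named genes and the response scores, 20 held 1 animal set apart from the rest by Dixon's gap criterion, which chance gives in about 1 in 20 sets. Sham groups were not checked in this way. In 7 of the 20 sets the animal was APOE4 TBI animal 6, which had the highest CPM of its group for Serpina3m (74.1, next animal 27.2), Serpina3n (1538, next 607), Tyrobp (184, next 108), Enpp6 (32.5, next 21.1), Steap4 (258, next 125), Spp1 (577, next 299) and Cst7 (62.1, next 27.2). APOE4 TBI animal 8 stood apart for Scn1a (491, next 330) and Slc17a6 (337, next 169). APOE4 TBI animal 7 was highest for Serpina3i (12.2, next 4.17), APOE4 TBI animal 3 for Arc (356, next 248) and APOE4 TBI animal 4 for Btrc (343, next 308).

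Among APOE3 TBI animals, animal 8 was the lowest for Asns (152, next 190), Gars (198, next 238), Nars (371, next 416), Yars (155, next 177) and Btrc (235, next 257). APOE3 TBI animal 7 was highest for Scn4b (69.3, next 47.6) and Mal (395, next 324), and APOE3 TBI animal 1 for Dusp10 (11.8, next 10.6).

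The libraries left out of the comparisons lay outside the range of the 14 shams for several named genes. Above the highest sham, library F1372 had 622 CPM for Adar (highest sham 617) and 829 CPM for Gfap (727). Library E2073 had 149 CPM for Atf4 (144), 111 CPM for Ica1 (104), 821 CPM for Nudt3 (658), 2.50 CPM for Serpina3i (2.01), 37.5 CPM for Trem2 (23.7), 37.9 CPM for Tyrobp (28.0) and 76.8 CPM for Apoe (45.6). It lay below the lowest sham for Mfn2 (338.8 CPM, lowest sham 407.5) and Hrk (143.7 CPM, lowest sham 146.5).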

How the results depend on the processing

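The 11 called genes kept their direction under every alternative run, and the number of called genes in injured animals varied. It was 21 with DESeq2, 18 with limma-voom and sample quality weights, 4 at an adjusted p of 0.01, 6 with the library total class as a covariate and 27 with all 30 animals in one fit. Subsets of 8 animals gave 0 calls for the letter F, 1 for shallow and 0 for deep libraries, and leaving out 1 animal gave 5 to 13. DESeq2 called 65 genes in shams, and all 21 of its injured calls had the same direction there. Leaving out 1 animal gave 0 to 0 genes for spread, -0.24 to -0.01 for the rising-gene score difference, 0.17 to 0.24 for the falling-gene score difference, -0.079 to 0.10 for the spread of the rising-gene score and -0.00928 to 0.0405 for that of the falling-gene score. With total-count scaling the falling-gene difference was 0.20 and passed. The rising-gene score difference was 0.0702 for the letter F, and for the letter M the spread differences were -0.12 for rising and -0.0552 for falling genes. These turned the direction, and the cause was not tested.

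Some genes that were not called changed sign. With the letter F alone the log2 difference was 0.50 for Serpina3g, 0.12 for Trem2, 0.52 for Lcn2, 0.10 for Steap4, 0.14 for Spp1, 0.17 for Cst7 and 0.28 for C3. Serpina3n was -0.29 with the letter M, -0.23 in deep libraries, and negative without APOE4 TBI animal 6. In shallow libraries Trem2 was 0.13, Apoe 0.10 and Cst7 0.0693. Leaving out 1 animal gave -0.20 to 0.31 for Serpina3n, -0.36 to 0.0354 for Serpina3g, -0.23 to 0.0223 for Trem2, -0.0872 to 0.00897 for Apoe and -0.61 to 0.00295 for Cst7, where all but the first turned positive without APOE3 TBI animal 4. The subsets by letter and the leave-outs of the gene lists and the genotype by letter test were chosen after seeing the data. No paired analysis was possible because the groups share no animals and the titles carry no replicate number common to the groups. Depth limits the low genes most, such as Serpina3i and Vipr2, and counting over a selected gene list leaves genes outside it not analysed here.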

Other observations

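The libraries left out of the comparisons had injury scores within or near the sham range. Library E2073 had a rising-gene score of 0.105 and a falling-gene score of -0.169, and library F1372 had 0.0253 and 0.0212. The 14 shams ran from -0.223 to 0.172 over rising genes and from -0.274 to 0.204 over falling genes.

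Summed levels of cell type markers had overlapping ranges in the injured genotypes. Microglial markers (5 genes) summed to 1036 to 1734 CPM in APOE4 TBI animals and 1141 to 1656 CPM in APOE3 TBI animals. Astrocyte markers (4 genes) summed to 3856 to 7914 CPM in APOE4 TBI animals and 5013 to 7807 CPM in APOE3 TBI animals, and markers of border and infiltrating macrophages (4 genes) to 19.8 to 49.7 CPM in APOE4 TBI animals and 15.2 to 56.2 CPM in APOE3 TBI animals. Markers of cortical and hippocampal neurons (5 genes) summed to 11080 to 15810 CPM in APOE4 TBI animals and 12230 to 16850 CPM in APOE3 TBI animals. These sums were not tested.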
